A study of Mus musculus with 6 samples.

Results

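The profile described here is that of sorted epithelial cells from benign skin papillomas of control mice, on 3 of the 6 arrays of the series. These are the arrays whose titles mark them as controls, and each gave a signal for 18193 genes. The series set them beside 3 arrays of K14CREER:SOX2fl/fl mice, in which tamoxifen (TAM) switches on a Cre recombinase under the keratin 14 promoter that deletes Sox2, and no value of those arrays is used below. The control mice had also received tamoxifen for 1 week, so every value here is that of a tamoxifen-treated animal. The labels call these animals only control mice: whether they carried the Cre or the floxed Sox2 allele, and their strain, age and sex, are not stated in them. The papillomas had been induced chemically with an agent that the labels do not name. After collagenase I digestion of the tumours, live single cells that carried Epcam were sorted, and those with CD45 (leukocytes), CD31 (endothelium) or CD140a (fibroblasts) were left out. The design text and the sample descriptions add alpha6 integrin to this gate, which the sorting protocol does not mention. The design text speaks of 3 biological experiments, and nothing states whether each array stands for 1 animal or for pooled tumours. How much of the spread between arrays is technical was not tested.

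In normal epidermis the basal layer divides, makes keratins 5 and 14 and is held to the basement membrane by alpha6 beta4 integrin. Cells that leave this layer change to keratins 1 and 10 and later build the cornified envelope, a crosslinked protein shell, while wounded or hyperplastic epidermis makes keratins 6, 16 and 17. A papilloma is a benign outgrowth that keeps these layers, and the stem cell factor Sox2 is known to be made in such tumours although normal interfollicular epidermis has little of it.

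Signals are given on the log2 scale of the deposited table, so that a step of 1 is a doubling of the signal, and values for single arrays stand in the order control 1, control 2, control 3. Where a gene had several probe sets, the strongest over the 3 controls stands for it. Probe sets differ in how strongly they bind their target, so a rank or class describes the strength of the array signal and not the number of transcripts. A gene was called high where its mean was at or above 10.02, the 90th percentile of all genes. It was called background where its mean was below 5.17, the 95th percentile of 72 olfactory, vomeronasal and trace amine receptor genes, which keratinocytes are not known to use. By these bounds 1820 genes (10%) were high, 10371 (57%) intermediate and 6002 (33%) at background, and the first share is fixed by the rule. Arid1a (10.02) and Prox2 (5.17) lay just above the upper and the lower bound, and Trappc10 (10.02) and Stc1 (5.17) just below them, with differences that appear only beyond the second decimal. The receptor genes themselves had a median of 3.95 and reached 6.86 for Vmn1r44, so a gene just above the lower bound is not shown to be expressed. Single arrays gave the same class in all 3 cases for 1601 of the high genes (88.0%), 9323 of the intermediate genes (89.9%) and 5571 of the background genes (92.8%).

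**Figure D1:**
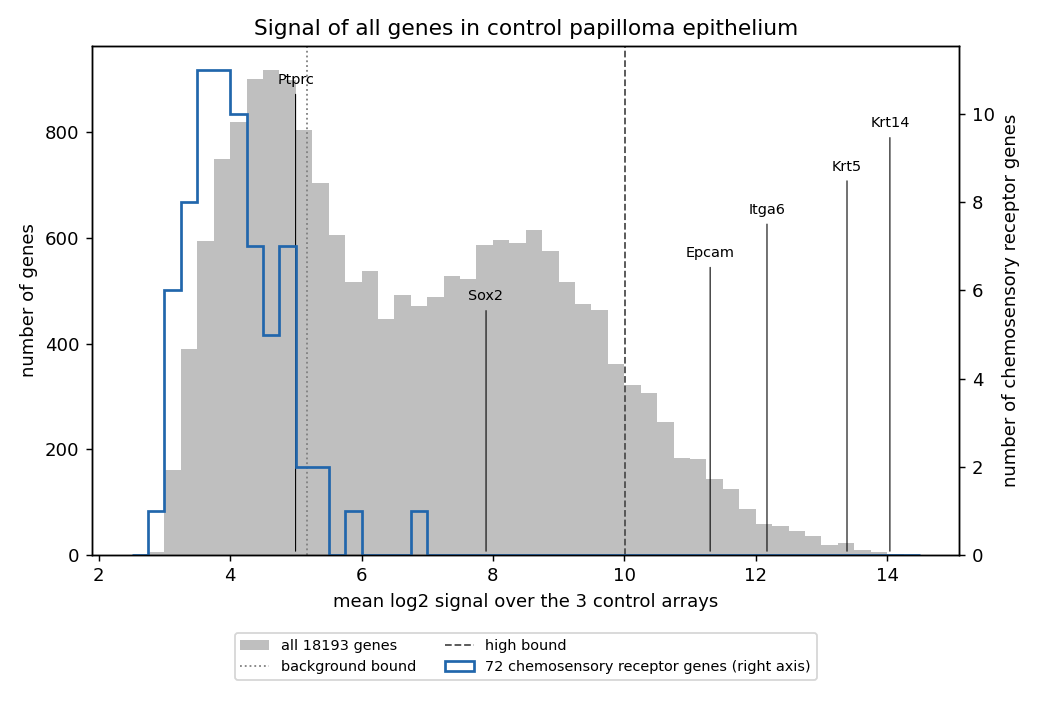
Histogram of the mean log2 signal over the 3 control arrays for all 18193 genes (grey, left axis) and for the 72 chemosensory receptor genes (blue, right axis), with both class bounds as vertical lines. Krt14, Krt5, Itga6 and Epcam lie above the high bound of 10.02, Sox2 lies in the intermediate range at 7.90 and Ptprc lies at background at 5.00.

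The 3 arrays resembled each other closely. Their medians over all probe sets lay between 5.42 and 5.46, the correlations across genes between pairs of arrays were 0.987 to 0.990 (genes are not independent replicates), and the median SD of a gene was 0.154. Only 96 genes had an SD above 1. The spike-in transcripts added before labelling differed more, with medians of 6.51, 9.79 and 7.34. The hybridization controls had medians of 10.12, 11.46 and 10.68, again highest in control 2. Control 1 also stood apart from the other two in sex-linked genes. Xist, the RNA of the inactive X chromosome, read 7.30 there against 12.03 and 11.85, and the Y-linked gene Eif2s3y read 9.67 against 3.72 and 3.45. A difference between control 1 and the other two can therefore not be told apart from one of sex.

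The label was checked against the genes that define the sorted cells. Krt14, the keratin of the basal layer, had the highest mean of all genes. It read 14.08, 13.94 and 14.12 (14.04 ± 0.10, mean ± SD, n = 3). Its other probe sets had means of 13.70 (high) and 8.75 (intermediate), so the highest mean holds for its strongest probe set only. Its partner Krt5 read 13.35, 13.43 and 13.39 (13.39 ± 0.04) and ranked 31 of 18193. Itga6, the alpha6 integrin of the gate, read 12.15, 12.25 and 12.12 (12.17 ± 0.07), rank 225. Epcam, the epithelial adhesion molecule used for the sort, read 11.07, 11.42 and 11.43 (11.31 ± 0.20), rank 568. The second Epcam probe set was intermediate (7.92). By their strongest probe sets these 4 genes were high in every array, and their ranges over the arrays did not exceed 0.36. The exclusion markers lay at the other end. The CD45 gene Ptprc read 5.14, 4.69 and 5.15, and Pecam1, which encodes CD31, 4.68, 4.46 and 4.60, both at background in each array. Pdgfra (CD140a) read 5.52, 5.32 and 5.05, a mean of 5.30 just above the bound. Without control 1 or without control 2 Pdgfra was in the background class (5.19 and 5.29 against bounds of 5.22 and 5.30), and its other probe sets were at background (4.55 and 4.62).

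Sox2 was in the intermediate class in every array. Its only probe set read 7.19, 8.31 and 8.18 (7.90 ± 0.61) and ranked 6302 of 18193 genes. Control 1 was the lowest, and the SD was above that of 95% of genes (0.454). Without control 1 the mean was 8.25.

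Beyond the markers, the strongest signals came from the translation machinery. Of the 25 highest genes, 15 encoded ribosomal proteins and 2 keratins (Krt14 and Krt6a). The remaining 8 were Tpt1, the translationally controlled tumour protein (14.03 ± 0.02), the keratinocyte fatty acid binding protein gene Fabp5 (13.85 ± 0.10), the elongation factor gene Eef1a1, the actin genes Actg1 and Actb, the poly-A binding protein gene Pabpc1, the thymosin gene Tmsb4x and the immediate early gene Fos. All 25 lay between 13.44 and 14.04. Several are read by probe sets with the suffix _s_at, _x_at or _a_at, called shared-sequence probe sets here. The suffix _a_at marks sequence shared by transcripts of the same gene, so such a probe set need not read other genes. The second Tpt1 probe set was at background (3.92). The order of these 25 genes among themselves is therefore uncertain. Other high calls below also depended on the probe set. Without shared-sequence probe sets Top2a (6.02), Fabp4 (6.05), Plec (8.48), Col1a2 (8.64), Snai2 (8.98) and Klf5 (9.53) were intermediate. With the median over a gene's probe sets Itgav (5.73), Adam10 (7.66), Krt17 (8.22) and Fgfr3 (8.43) were intermediate.

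All 7 basal and wound keratins were high, with a median of 13.39, against 10% of all genes and an all-gene median of 6.52. Krt6a, a keratin of wounded and hyperplastic epidermis, read 13.61, 13.44 and 13.64 (13.56 ± 0.11), and its close copy Krt6b read 13.63, 13.19 and 13.45. Krt16, the partner of keratin 6, read 13.29, 12.57 and 12.99. Krt6a and Krt6b are nearly identical in sequence, so their probe sets may read each other's transcripts. Krt17, which is induced with them, had a mean of 11.99 ± 0.17, although its second probe set was at background. Krt15, a keratin of resting basal and follicle stem cells, was the lowest of the list at 11.30 ± 0.19.

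Suprabasal keratins were high as well. Krt10 read 13.58, 12.44 and 13.06 (13.03 ± 0.57) and its partner Krt1 read 13.02, 12.24 and 12.31 (12.52 ± 0.43), with control 1 the highest for both. They were the only high members among 16 suprabasal, simple and mucosal keratins, of which 9 were intermediate and 5 at background. Krt79, known from the upper hair follicle (9.24 ± 0.49), Krt13, a mucosal keratin of stratified epithelia (8.74 ± 0.41), and its partner Krt4 (8.21 ± 0.29) followed. The simple epithelial keratin gene Krt18 read 6.79, 8.19 and 7.92, lowest in control 1, and its partner Krt8 had a mean of 5.91. Krt2 (4.21), a late suprabasal keratin of normal mouse skin, and Krt20 (4.12), a Merkel cell keratin, were at background in all 3 arrays. The 19 hair shaft and inner root sheath keratins held no high gene: 9 were intermediate, led by Krt81 (7.02 ± 0.21), and 10 were at background.

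**Figure D2:**
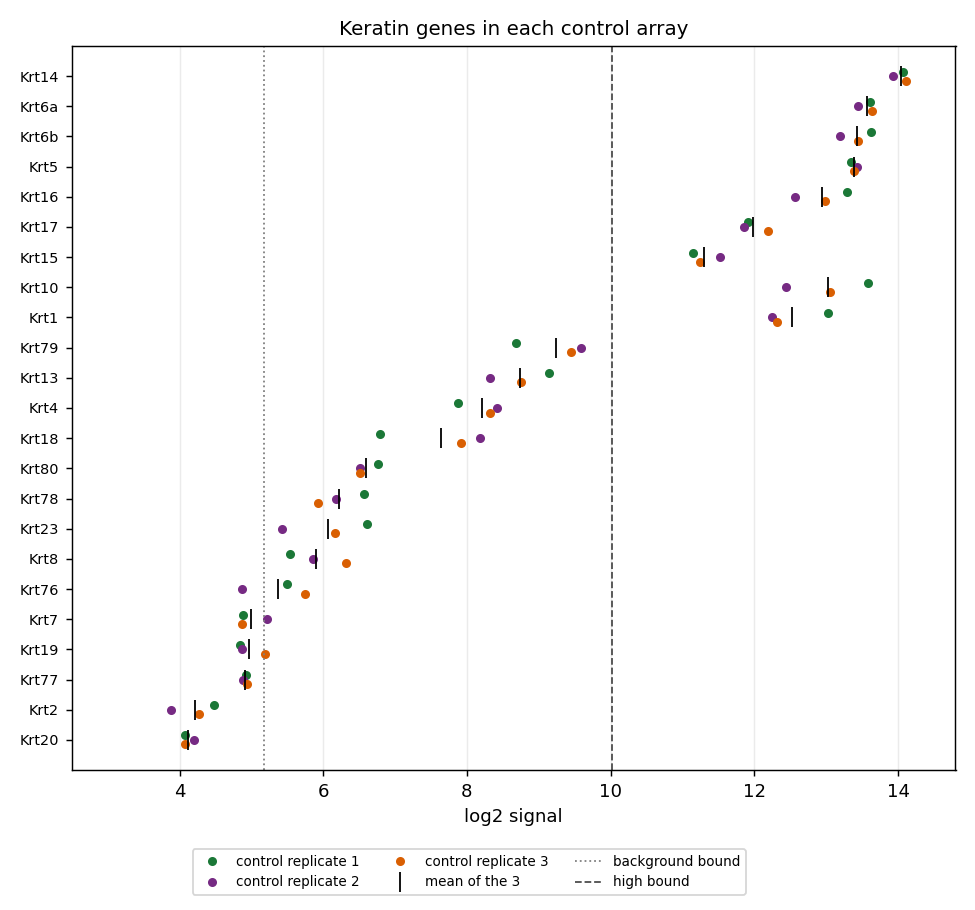
Log2 signal of the 7 basal and wound keratins (upper rows) and the 16 suprabasal, simple and mucosal keratins (lower rows) in each control array, with the mean of the 3 as a black tick and both class bounds as vertical lines. All 7 basal and wound keratins and, of the others, only Krt10 and Krt1 lie above the high bound.

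Adhesion genes of the basal layer were mostly high. Of 19 genes of hemidesmosomes and basement membrane adhesion, 11 were high, 8 intermediate and 0 at background, with a median of 10.29. After Itga6 came Col17a1, a transmembrane collagen of hemidesmosomes (11.76 to 12.24, SD 0.24), Plec, the linker to keratin filaments (11.26 ± 0.15), and Itgav, an integrin of migrating epithelium (11.15 ± 0.11). Itgb4, the partner of alpha6, had a mean of 10.49 ± 0.10. The lowest were Itgb6 (6.88 ± 0.38) and Itga2 (6.37 ± 0.48). This list depended most on the choice of probe set: with the median over each gene's probe sets its median was 7.95. Desmosomes and adherens junctions had 10 high genes of 17, led by Dsp, which ties desmosomes to keratin (12.90 ± 0.12), the p63 target Perp (12.87 ± 0.08), Ctnnb1, beta-catenin (12.43 ± 0.06), and Ctnna1 (11.89 ± 0.12). Cdh1, the epithelial cadherin, had a mean of 11.46 ± 0.26. Pkp2, a plakophilin of simple epithelia and heart, was at background at 5.04, and just above the bound without control 1 (5.30), where another of its probe sets was the strongest.

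Genes of the later layers were spread over the whole range. Of 36 measured genes of suprabasal differentiation and the cornified envelope, 9 were high, 20 intermediate and 7 at background (median 7.29). Next to Krt1 and Krt10, the early suprabasal secreted proteins Krtdap (13.24, 12.91 and 12.89), Dmkn (12.82, 12.77 and 12.72) and Sbsn (12.11, 11.52 and 11.60) were high in every array. The small proline-rich envelope genes Sprr2d (12.25 ± 0.15), Sprr1b (11.82 ± 0.57) and Sprr1a (11.04 ± 0.73) were high as well, and as close copies they may share signal. The envelope protein genes of later layers were lower: Ivl, involucrin, read 8.29, 7.02 and 6.65 and Lor, loricrin, read 6.28, 6.18 and 6.01. Flg, filaggrin of the granular layer (4.56, 3.47 and 3.24), its relative Hrnr (3.26 ± 0.28) and the late envelope gene Lce1c (3.28 ± 0.10) were at background in all arrays. Envelope crosslinking enzymes lay between, with Tgm1 at 9.99 ± 0.34 and Tgm3 at 8.98 ± 1.09.

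Control 1 stood above the other two in this list. Of its 29 members above the lower bound in an array, 25 were highest in control 1, against 32.9% of all 12781 such genes, and 9 were higher there by at least 1 than the mean of the other two arrays, against 181 of the 12781 (1.42%). These 9 were Ivl, Tgm3, Calm4, Calml3, Dsg1a, Dsc1, Sprr1a, Alox12b and Spink5. Sprr3 went the other way, lower by at least 1 in control 1 and higher by at least 1 in control 2. Spink5, an inhibitor of the proteases that shed the cornified layer, read 9.67, 7.02 and 8.81, and Dsc1, a desmosomal cadherin of upper layers, read 9.84, 7.74 and 7.85. The list's median per array was 8.34, 7.37 and 7.30. Krt14 and Krt5 did not follow, with ranges of 0.18 and 0.08 over the arrays. In bulk RNA, fewer cells of a type and less RNA per cell cannot be told apart.

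The promoters of these layer-specific genes were set beside those of all genes, because the class rule did not use sequence. In the RefSeq promoter windows (build GRCm38.p6, 250 bases before to 50 after each gene's start), the letters TATAAA were searched on the sense strand within the 50 bases before the start, the place of the classical TATA box. They were found in 3.15% of the 27025 genes of the table and in 3.30% of the 14452 measured genes with a window. The share was 3.74% of 1499 high genes, 2.17% of 8326 intermediate genes and 5.19% of 4627 background genes. On either strand and anywhere in the window the same letters were in 10.5%, 8.82% and 16.6%, against 15.7% of the genes of the table and 11.5% of the measured genes with a window, so high genes lay above all genes by the first search and below them by the second. By list the shares differed more widely. Among genes with a window, the stricter search found TATAAA in 11 of 29 of the cornified envelope list and 10 of 14 hair keratins. It was found in 5 of 18 wound and antimicrobial genes and in 6 of 22 chemokines and cytokines. A gene counted where any of its windows held the letters. The counts of 0 of 23 G1 and S phase genes and 0 of 20 mitotic genes are too small to set apart from the 3.30% of measured genes. The number of CG dinucleotides was taken from the window with the most where a gene had several. Its median was 24 for high, 21 for intermediate and 7 for background genes, and 3 for the cornified envelope list.

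Some of these promoters are shown from 60 bases before to 20 bases after the start, 5′ to 3′ on the gene's own strand, with TATAAA in capitals. The first 4 lines belong to genes that were high here and the next pair to envelope genes that were intermediate, all chosen for holding the letters within the 50 bases; Krt5 and Sox2, in which they are absent from the stretch, are given for comparison.
Krt10 at chr11:99389345-99389424, minus strand: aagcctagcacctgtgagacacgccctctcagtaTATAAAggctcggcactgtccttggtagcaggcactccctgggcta
Krtdap at chr7:30787845-30787924, plus strand: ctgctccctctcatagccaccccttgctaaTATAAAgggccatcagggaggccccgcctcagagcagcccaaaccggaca
S100a8 at chr3:90669011-90669090, plus strand: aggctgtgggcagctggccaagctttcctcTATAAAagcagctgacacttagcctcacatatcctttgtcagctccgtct
Fos at chr12:85473830-85473909, plus strand: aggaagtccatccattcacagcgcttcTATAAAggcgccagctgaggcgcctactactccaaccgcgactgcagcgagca
Ivl at chr3:92573716-92573795, minus strand: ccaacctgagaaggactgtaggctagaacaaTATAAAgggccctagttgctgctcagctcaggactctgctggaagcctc
Lor at chr3:92083123-92083202, minus strand: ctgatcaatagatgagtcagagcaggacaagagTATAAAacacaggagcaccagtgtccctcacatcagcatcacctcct
Krt5 at chr15:101712886-101712965, minus strand: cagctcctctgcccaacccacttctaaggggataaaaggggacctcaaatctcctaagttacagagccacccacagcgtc
Sox2 at chr3:34649935-34650014, plus strand: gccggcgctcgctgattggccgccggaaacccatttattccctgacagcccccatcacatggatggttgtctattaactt
The first T of TATAAA lay 26 bases before the start in Krt10, 27 in Lor, 29 in Ivl, 30 in Krtdap and S100a8 and 33 in Fos. Whether these letters serve as a TATA box was not tested.

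Genes of wounded and inflamed keratinocytes were among the strongest groups. Of 23 measured, 15 were high, 6 intermediate and 2 at background (median 11.52). Besides the wound keratins they included Stfa3, a stefin protease inhibitor (13.02, 12.99 and 12.93), and S100a8 (12.94, 13.20 and 12.58) and S100a9 (12.89, 13.19 and 12.37), which form the antimicrobial protein calprotectin and are made by inflamed keratinocytes as well as by neutrophils. The protease inhibitor gene Slpi (12.64 ± 0.27), the hyaluronan receptor gene Cd44 (12.37 ± 0.09) and the connexin gene Gjb2 (11.50 ± 0.49) were also high in every array. Against this, the beta-defensin genes Defb3 (5.58, 4.26 and 4.62) and Defb4 (5.73, 3.87 and 3.89) had means at background and lay above the lower bound in control 1 alone.

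Transcription factors of epithelium gave mid to high signals, with 7 of 30 high, 23 intermediate and 0 at background (median 9.22). The highest were Klf4, which drives barrier formation (12.66, 12.32 and 12.62), Klf5 of the basal layer (11.91 ± 0.21), the stress-responsive Cebpb (11.67 ± 0.21) and Ets2 (11.59 ± 0.10). Trp63, the master regulator of stratified epithelium, had a mean of 11.46 ± 0.09. Prdm1, known from terminally differentiating keratinocytes and sebaceous cells, read 9.67, 8.12 and 8.14, the largest spread of the list. The lowest were Dlx3 (5.58 ± 0.07) and Msx2 (5.22 ± 0.06), which without control 2 was at background (5.19).

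Of 22 hair follicle stem cell genes 3 were high, 16 intermediate and 3 at background (median 7.69), against 10%, 57% and 33% of all genes. Plet1, an upper follicle marker (12.35 ± 0.31), the activin antagonist gene Fst (12.16 ± 0.21) and Krt15 were the high members, of which Plet1 was intermediate (6.89) without shared-sequence probe sets. Sox9, a follicle and tumour stem cell factor, had a mean of 9.56 ± 0.18, the junctional zone marker Lrig1 9.12 ± 0.10 and the bulge marker Cd34 8.48 ± 0.37. Lgr5, a marker of cycling follicle stem cells, read 6.63, 5.55 and 4.86, and without control 1 its mean of 5.20 was at background. Fgf18 (4.5) and Bmp6 (4.68), signals of the resting bulge, were at background.

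Among SOX family and pluripotency-associated regulators Sox2 was neither the strongest nor the weakest. Of 29 genes, 3 were high, 17 intermediate and 9 at background (median 6.61), shares close to those of all genes. The high members were Klf4, Sox4, a SOX factor common in epithelial tumours (11.19, 11.10 and 11.41), and Sox21, a follicle and epidermal factor (10.28, 9.67 and 10.41), which was just below the upper bound without control 3 (9.97). The other 7 probe sets of Sox4 were below the high class, and the median over all of them was 6.44. Myc, the growth-promoting oncogene, read 9.41, 10.29 and 9.65. Sox7 (9.60 ± 0.28), Sox9 and the keratinocyte factor Sox15 (8.51 ± 0.12) read above Sox2 (7.90), and Sox11 read 5.28, 7.37 and 6.99, lowest in control 1 like Sox2. The core embryonic pluripotency genes Pou5f1 (3.91 ± 0.06), Nanog (3.54 ± 0.04), Zfp42 (3.37 ± 0.06), Lin28a (3.83 ± 0.14) and Lin28b (3.15 ± 0.12) were at background in every array.

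Surface proteins used to sort tumour stem cells ranged from high to background. Of 22 surface and aldehyde dehydrogenase genes, 11 were high, 7 intermediate and 4 at background (median 9.62). With the median over each gene's probe sets the list median was 8.79, and without shared-sequence probe sets 8.83. The tetraspanin gene Cd9 (12.67 ± 0.08), the syndecan gene Sdc1 (12.62 ± 0.07), Ly6d (12.41 ± 0.16) and Cd44 led the list, followed by Cd24a (12.16 ± 0.14). Prom1 (CD133), a stem cell marker of several tumours, read 7.65, 9.13 and 7.35. Aldh1a1 (4.10 ± 0.06) and Aldh1a7 (3.86 ± 0.04), the dehydrogenases on which a common stem cell assay rests, were at background, while Aldh3a1 was intermediate (8.62 ± 0.51).

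Of 15 genes of epithelial to mesenchymal transition 3 were high (20%), 7 intermediate and 5 at background (33.3%), against 10% and 33% of all genes, with a median of 5.33. The high members were Tgfbi, a matrix protein induced by TGF-beta (11.98 ± 0.16), Snai2, a repressor that basal keratinocytes also use (10.46, 11.08 and 10.62), and Sparc (10.42 ± 0.19). Pdpn, a membrane protein of hyperplastic keratinocytes, had a mean of 9.47 ± 0.09 and the filament gene Vim 8.52 ± 0.29. Snai1 (4.45 ± 0.14), Zeb1 (4.99 ± 0.15) and the neural cadherin gene Cdh2 (3.47 ± 0.05) were at background. Twist1 read 4.90, 4.96 and 6.12, above its bound in control 3 alone. Matrix proteases and invasion genes were higher, with 5 of 21 high, 14 intermediate and 2 at background (median 9.30). Mmp13, a collagenase of tumour and wound epithelium (11.45, 10.75 and 10.60), the sheddase gene Adam10 (11.03 ± 0.19) and Adam8 (10.40 ± 0.08) were high. Plau, urokinase, read 10.95, 8.96 and 10.46, and was below the upper bound without control 1 (9.71) or without control 3 (9.96). Mmp12, the macrophage elastase (5.14 ± 0.65), and Mmp11 (5.13 ± 0.43) lay just under the lower bound, and above it without control 3 (5.31 and 5.36); Mmp12 was also above it without control 2 (5.34).

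Genes of cell division were well above background. In G1, S phase and replication 12 of 30 genes were high, 17 intermediate and 1 at background (median 9.45), and in G2 and mitosis 7 of 26 were high, 19 intermediate and 0 at background (median 8.98). Ccnd1, the cyclin downstream of growth factors, read 11.67, 11.96 and 12.15. The replication genes Pcna (11.88 ± 0.13), Mcm7 (11.33 ± 0.19) and Rrm2 (11.31 ± 0.10), the proliferation marker Mki67 (10.67, 11.21 and 11.12), the topoisomerase gene Top2a (10.83 ± 0.10) and the mitotic genes Cdc20 (11.38 ± 0.26) and Ube2c (10.72 ± 0.27) were high in each array. Of the 26 mitotic genes, 23 were highest in control 2 and 21 lowest in control 1, against 41.1% and 28.6% of all genes above the lower bound in an array, with array medians of 8.72, 9.20 and 9.02, and none differed by as much as 1 from the mean of the other two arrays. The only background gene was Tyms (5.03 ± 0.23), whose 4 probe sets were all at background and which lay above the bound without control 3 (5.08 against 5.04).

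Inhibitors and suppressors were present beside them: of 30 genes of CDK inhibition, the p53 pathway and tumour suppression, 5 were high, 25 intermediate and 0 at background (median 8.67). Cdkn1a (p21), a p53 target that halts the cycle, read 11.71, 11.27 and 11.49. Mcl1, which blocks apoptosis (11.63 ± 0.03), and the p53 targets Ccng1 (11.04 ± 0.18) and Gadd45b (10.58 ± 0.16) were also high. Cdkn2b, the p15 inhibitor induced by TGF-beta, read 9.97, 8.84 and 9.56, and Cdkn2a, which encodes p16 and p19, had a mean of 9.37 ± 0.32. Cdkn1c (5.67 ± 0.11) and Nf1 (6.19 ± 0.17) were lowest.

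**Figure D3:**
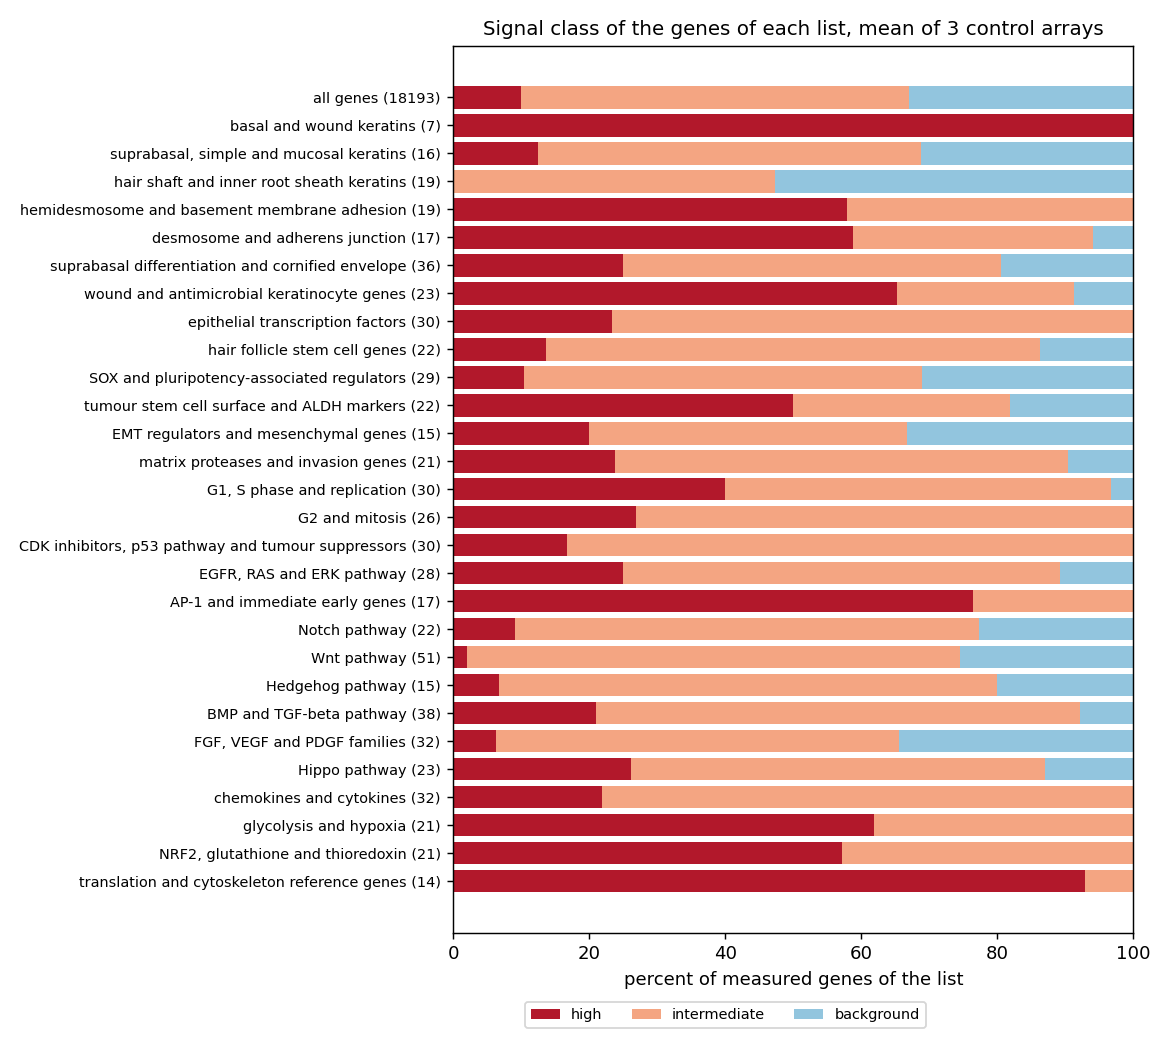
Share of the measured genes of each list that were high, intermediate or at background by their mean over the 3 control arrays, with the number of genes in brackets and all 18193 genes in the top bar. The basal and wound keratins (7 of 7), the translation and cytoskeleton genes (13 of 14) and the AP-1 and immediate early genes (13 of 17) have the largest shares of high genes among these 28 lists, and the hair keratins have none.

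Of 28 genes of signalling through EGFR, RAS and ERK, 7 were high, 18 intermediate and 3 at background (median 9.66), and the high ones were ligands, feedback genes and 1 receptor. The ligand genes Hbegf (12.61, 12.86 and 12.72), Ereg (12.01, 11.07 and 12.11) and Epgn (11.10, 9.97 and 10.84) were high, Tgfa was at 9.76 ± 0.09, and Egf itself was at background (4.65 ± 0.06). The receptor genes Egfr (8.91 ± 0.10) and Erbb2 (8.56 ± 0.28) were intermediate, Erbb3 (10.20 ± 0.18) was high and Erbb4 (3.37 ± 0.06) was at background. Feedback genes were divided. Dusp6, an ERK phosphatase, read 12.06, 12.14 and 12.54, Phlda1 had a mean of 12.82 ± 0.12, and Errfi1, an inhibitor of EGFR, one of 11.70 ± 0.34. The inhibitor gene Spry2 (10.15, 9.62 and 9.93) was intermediate, as was Spry1 (8.01, 9.35 and 8.82), the most variable of the list, and Spry4 was at background (5.08, 5.15 and 5.12). Nras (10.01 ± 0.03) lay just below the upper bound.

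Immediate early genes, which answer to growth factors and stress within minutes to hours, were the strongest signalling group by median. The cells had been released with collagenase I and sorted alive. The part of this handling in the signal was not tested. Of 17 genes, 13 were high, 4 intermediate and 0 at background (median 11.59). Fos read 13.47, 13.87 and 13.87 and ranked 9 of all genes. Dusp1, a phosphatase of stress kinases (13.13, 13.41 and 13.30), Ier3 (12.93 ± 0.30), Egr1 (12.33, 13.22 and 12.77), Jun (12.60 ± 0.27) and Atf3 (11.92 ± 0.29) were high in every array. Of the 17, 13 were highest in control 2 and 12 lowest in control 1, where the shares over all genes were 41.1% and 28.6%, with array medians of 11.28, 12.05 and 11.46. Batf, an AP-1 factor of lymphocytes, was the lowest (5.82 ± 0.07).

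The Notch pathway had 2 of 22 genes high, 15 intermediate and 5 at background (median 8.41), against 10%, 57% and 33% of all genes. The high pair was a ligand and a receptor: Jag1 read 11.65, 11.91 and 12.03 and Notch1, which promotes keratinocyte differentiation, 11.32, 11.43 and 11.31. Notch2 (9.34 ± 0.22) and Notch3 (8.80 ± 0.10) were intermediate, and Notch4 (4.46 ± 0.11), an endothelial receptor, was at background. Among targets Nrarp (9.41 ± 0.08) and Hes1 (8.67 ± 0.43) read above Hes6 (7.22 ± 0.47), and Hey2 was at background (3.45 ± 0.09).

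Of 51 Wnt genes 1 was high, 37 were intermediate and 13 at background (median 6.49), a median near that of all genes. The ligand gene Wnt4 was the high member (10.35, 10.40 and 10.10), followed among ligands by Wnt10a (9.14 ± 0.28) and Wnt5a (8.78 ± 0.50). The receptor genes Fzd6 (9.84 ± 0.26) and Ryk (9.79 ± 0.04) and the secretion factor gene Wls (9.72 ± 0.09) were near the top. The target genes Axin2 (6.36 ± 0.24) and Lef1 (5.36 ± 0.15) were low in the intermediate range. Of the secreted inhibitors, Sfrp1 had a mean of 9.11 ± 0.21, Dkk2 (3.57 ± 0.11) and Frzb (4.09 ± 0.23) were at background, and Wif1 read 6.04, 4.30 and 3.62, above the bound in control 1 alone, and its mean was above the bound without control 3 (5.17 against 5.04).

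The Hedgehog pathway had 1 high gene of 15, 11 intermediate and 3 at background (median 6.97), against 10%, 57% and 33% of all genes. Gas1, a co-receptor (11.62 ± 0.14), was the high member, the transducer Smo had a mean of 9.63 ± 0.37 and the receptor Ptch1 one of 8.36 ± 0.09. The ligand gene Shh read 4.93, 6.0 and 5.30, and its mean of 5.41 was 5.11, at background, without control 2. Ihh (4.55 ± 0.27) and the inhibitor gene Hhip (4.62 ± 0.19) were at background, and the target Gli1 was just above the bound (5.35 ± 0.10).

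In the BMP and TGF-beta pathway 8 of 38 genes were high, 27 intermediate and 3 at background (median 8.78). The antagonist gene Fst (12.10, 11.98 and 12.40) led the list, with the signal transducers Smad4 (10.64 ± 0.02) and Smad1 (10.48 ± 0.04) and the receptor genes Bmpr2 (10.36 ± 0.19) and Tgfbr2 (10.18 ± 0.27) also high. The ligand genes Bmp2 (9.61 ± 0.27) and Tgfb1 (6.99 ± 0.37) were intermediate. Id1, a target of BMP signalling, read 9.47, 11.57 and 9.85. It was high in control 2 alone, and without control 2 its mean was 9.66, below the upper bound. Id4 followed the same order (7.87, 9.73 and 8.08), while Id3 did not (10.55, 10.13 and 10.49). Smad9 (4.31 ± 0.11) and the antagonist gene Nog (4.51 ± 0.11) were at background.

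The FGF, VEGF and PDGF families were the lowest signalling group by median (6.03). Of 32 genes 2 were high, 19 intermediate and 11 at background, near the 10%, 57% and 33% of all genes. Fgfbp1, a carrier that releases FGFs (11.66, 11.29 and 11.85), was high, as was the receptor gene Fgfr3 (9.93, 10.74 and 9.87), which without control 2 had a mean of 9.90, below the upper bound. Fgfr2 (9.73 ± 0.13) and Vegfa (9.49 ± 0.40), the angiogenic factor of tumours, were intermediate. Fgf2 (3.66 ± 0.12), Fgf7 (4.61 ± 0.06), Fgf10 (4.45 ± 0.24) and Pdgfd (3.38 ± 0.20) were at background. Nrp1, a VEGF co-receptor, read 6.92, 7.0 and 8.15.

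The Hippo pathway had 6 of 23 genes high, 14 intermediate and 3 at background (median 9.16). Fat1, an atypical cadherin (11.25 ± 0.18), the matrix protein gene Ccn1 (10.67, 10.99 and 11.39), a target of YAP, and the kinase activator gene Mob1a (10.52 ± 0.14) led it. Yap1, the effector, had a mean of 10.21 ± 0.03, and its relative Wwtr1 read 10.33, 9.30 and 10.10, a mean of 9.91 that was 10.21, in the high class, without control 2. The targets did not share a level: Ccn2 had a mean of 6.77 ± 0.37 and Ankrd1 was at background (4.05 ± 0.15).

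Of 32 chemokines and cytokines 7 were high, 25 intermediate and 0 at background (median 8.64), the lowest being Ccl5, just above the lower bound at 5.21. The neutrophil-attracting chemokine genes Cxcl1 (12.85, 12.75 and 13.08), Cxcl2 (12.11, 11.97 and 12.48) and Cxcl3 (11.49 ± 0.12) and the granulocyte growth factor gene Csf3 (11.65, 11.50 and 11.35) were high in all arrays. The list leaned to control 1: 18 of 32 genes were highest there, against 32.9% of all genes above the lower bound in an array. Of the 32, 8 were higher there by at least 1 than the mean of the other 2 arrays, against 181 of 12781 (1.42%). Cxcl9 read 10.30, 7.25 and 8.25 and Cxcl10 read 10.30, 8.36 and 9.26, both interferon-induced, and Il33, an alarmin of keratinocytes, read 10.75, 8.66 and 10.15. Tslp, a cytokine of barrier damage, ran the other way at 10.39, 12.01 and 10.86. Without control 1 the median of the list was 8.05, and Ccl5 (5.81, 4.79 and 5.02) then lay at background (4.90), as did Il10 (7.21, 4.74 and 4.98). Without control 2 the 1 member at background was Ccl27a (5.05).

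Metabolic and antioxidant genes were strong. In glycolysis and hypoxia 13 of 21 genes were high, 8 intermediate and 0 at background (median 11.31), led by Ldha, lactate dehydrogenase (12.90 ± 0.07), the glucose transporter gene Slc2a1 (12.72 ± 0.10), Hif1a (12.57 ± 0.06) and Pgk1 (12.51 ± 0.03). The hypoxia target Car9 was intermediate (7.44, 7.88 and 6.66), as was the lactate exporter gene Slc16a3 (6.31 ± 0.36), while its relative Slc16a1 was high (11.81 ± 0.01). Of 21 NRF2, glutathione and thioredoxin genes, 12 were high, 9 intermediate and 0 at background (median 10.51). Txn1, thioredoxin (13.04 ± 0.06), Gpx1 (12.83 ± 0.15), Gsto1 (12.78 ± 0.20) and Gsta4 (12.35 ± 0.09) were the strongest. Hmox1, heme oxygenase, was the most variable, at 9.34, 6.72 and 6.92, with control 1 apart. The median of this list was below the upper bound with the median over each gene's probe sets (9.14, against a bound of 9.23 for that setting). That of the glycolysis and hypoxia list fell to 9.35 in the same setting, still above the bound. The translation and cytoskeleton reference genes were high in 13 of 14 cases, the exception being Rps6 at 9.07 ± 0.08.

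Markers of other cell types were low for blood cells and endothelium and higher for fibroblasts. No leukocyte, endothelial, muscle, mast cell, melanocyte, Merkel cell or erythroid list held a high gene, where 10% of all genes were high. Against 33% of all genes, the share at background was 60% in the pan-leukocyte, 63.6% in the macrophage and 55.6% in the T cell list. It was 60% in the B cell, 53.8% in the endothelial and 33.3% in the neutrophil list. The pan-leukocyte list had 4 of 10 genes above the lower bound, led by Laptm5 (7.24 ± 0.07), a median of 5.01 and array medians of 5.20, 5.21 and 5.14. Ptprc, Cd53, Tyrobp, Lcp1, Cd37 and Cd48 were at background. In the macrophage list 4 of 11 genes were above the bound, with Cd14 (8.27 ± 0.35), which keratinocytes also make, the highest, and Adgre1, Itgam, Mrc1 and all 3 C1q genes at background. The T cell list had 4 of 9 above the bound (Zap70, 7.80 ± 0.11) and the B cell list 2 of 5 (Pax5, 5.39 ± 0.27). Endothelial genes were above the bound in 6 of 13 cases, led by Egfl7 (7.31 ± 0.17), with Pecam1, Cdh5, Tek, Vwf and Emcn at background. Without control 3, where the lower bound was 5.04, the medians of the pan-leukocyte (5.12) and endothelial (5.09) lists lay above it.

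Langerhans and dendritic cell genes lay at separate levels. The MHC class II genes H2-Ab1 (9.26, 8.95 and 9.17), H2-Aa (9.47, 8.26 and 9.28), Cd74 (8.80, 7.76 and 8.14) and H2-Eb1 (8.45, 7.80 and 8.02) were intermediate, and each was lowest in control 2. The defining gene Cd207, langerin, was at background (5.05 ± 0.21), as were Itgax (4.51 ± 0.10), Ciita (4.91 ± 0.22) and Ccr7 (4.57 ± 0.04). Neutrophil genes were above the bound in 4 of 6 cases but low, from 4.73 for Mpo to 5.66 for Csf3r, except Ltf, lactoferrin, at 5.69, 9.37 and 7.68. No source of the MHC class II or Ltf signal was tested.

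Of 13 fibroblast genes 2 were high, 10 intermediate and 1 at background (median 7.18). Postn, periostin, read 11.52, 11.14 and 10.92. The collagen genes Col1a2 (10.69, 10.71 and 9.33), Col3a1 (10.24, 10.05 and 8.90) and Col1a1 (8.61, 8.58 and 7.03) and the proteoglycan gene Dcn (7.88, 8.40 and 6.81) were all lowest in control 3. Of the 12 members above the lower bound, 11 were lowest in control 3 (38.3% of all genes) and 8 lower there by at least 1 than the mean of the other two, against 99 of 12781 genes overall (0.775%), with array medians of 7.75, 7.37 and 6.80. The defining gene Pdgfra, whose protein was used to exclude these cells, was at 5.30 and Fap at background (3.70 ± 0.11). Without control 2 Col1a2 was just below the upper bound (10.01 against 10.03), and without control 3 Col3a1 was above it (10.15). Without control 1 or 2 the list had 3 members at background instead of 1. In the list of pericytes and smooth muscle Acta2 read 9.71, 8.91 and 9.67, but its other 2 probe sets were at background and Myh11 (4.64) and Cnn1 (4.62) as well. The part of fibroblast RNA in other values was not tested.

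Sebaceous and fat genes also differed by array. Of 9 sebocyte genes 4 were high, 4 intermediate and 1 at background, the high ones being lipid genes that many epithelia use: Mgst1 (12.07 ± 0.19), Scd1 (10.55, 11.65 and 11.06), Plin2 (10.42 ± 0.13) and Fasn (10.13 ± 0.02). Without shared-sequence probe sets Mgst1 was at background (3.86), and with the median over its probe sets intermediate (7.96). Of the 8 above the lower bound 7 were highest in control 2 (41.1% of all genes). Elovl3, a fatty acid elongase of sebaceous glands, read 6.0, 8.69 and 6.14 and Far2, a fatty alcohol enzyme, 5.55, 7.86 and 5.43. Without control 2 the median of the list was 6.07 instead of 6.95. Fabp4 read 11.94, 9.14 and 10.15, and without control 1 its mean was 9.65, below the upper bound. The adipocyte genes Adipoq (3.68), Cidec (4.32) and Lep (4.07) were at background. Melanocyte genes reached 6.99 (Sox10) and 6.78 (Dct: 6.92, 7.21 and 6.22), with Kit and Ednrb at background. Merkel cell genes beyond Krt8 and Krt18 reached 5.53 (Sst), and Atoh1 was at background (4.53 ± 0.11). Schwann cell genes reached 8.67 (Mbp), with Cdh19 at background. Skeletal muscle genes reached 6.36 (Mylpf), mast cell genes 5.80 (Hdc), and the 3 erythroid genes were at background.

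**Figure D4:**
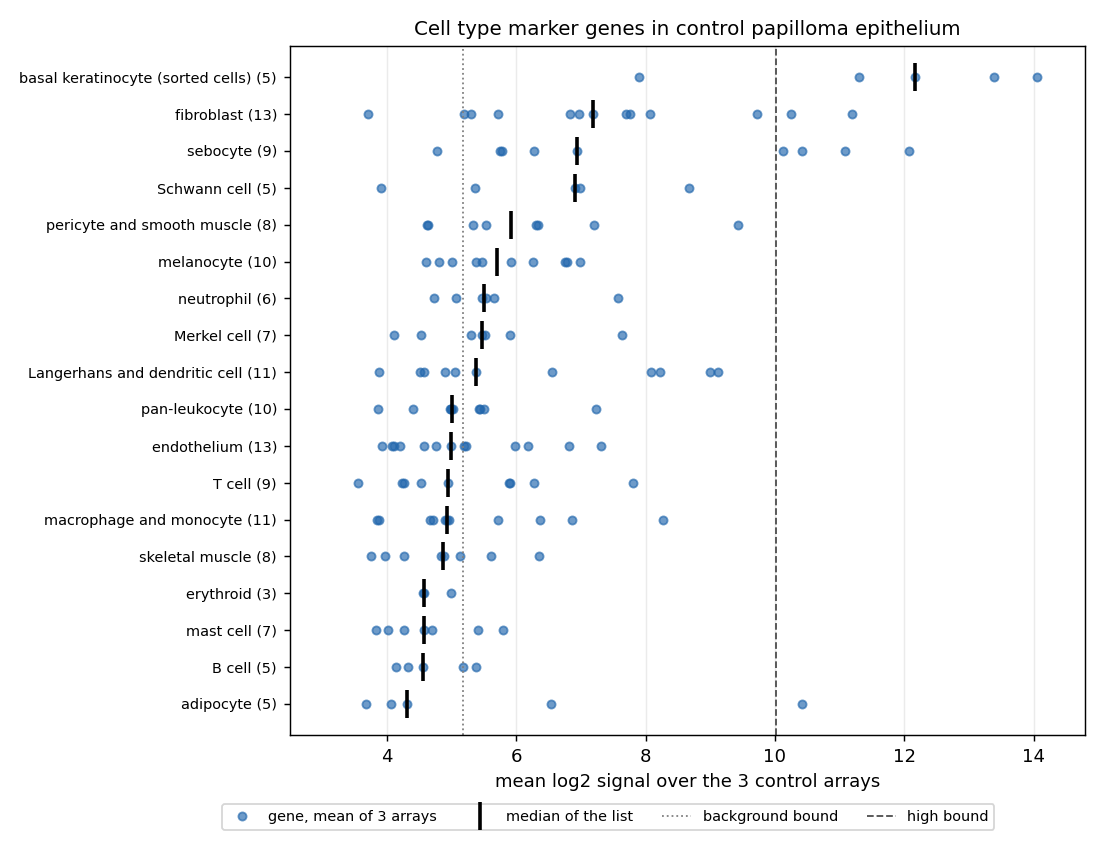
Mean log2 signal over the 3 control arrays of the marker genes of each cell type (points), the median of each list (black tick) and both class bounds (vertical lines), with the number of genes measured in brackets and lists ordered by median. The basal keratinocyte list has the highest median at 12.17 and the fibroblast list the next at 7.18, and the adipocyte list the lowest at 4.32.

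The genes that varied most between the 3 arrays mostly set control 1 against the other two. Slc15a2, a peptide transporter, read 4.06, 8.79 and 9.19, and Ostf1, a signalling adaptor, 4.41, 9.22 and 9.28. Both were at background in control 1 alone, and their other probe sets had means at or near background (4.15 to 5.36). Xist has been given above. Its other probe sets read 8.12 and 9.13, and its mean was below the high class without control 2 (9.57) or without control 3 (9.66). Mid1, an X-linked ubiquitin ligase, read 7.01, 10.37 and 9.40, and Bex1, also X-linked, 4.06, 6.47 and 7.0.

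Other variable genes were highest in control 1. Cxcl9, Ctse, a cathepsin of epithelia and antigen-presenting cells (9.18, 5.92 and 7.40), Serpinb12, an epidermal serpin (9.24, 6.08 and 7.61), Mt4, a metallothionein of stratified epithelium (10.01, 6.95 and 8.39), H60c, a stress ligand of skin (8.41, 6.22 and 5.31), and Sparcl1 (7.76, 4.62 and 5.69) were among them, and Sparcl1 was at background without control 1 (5.16). Ltf and Ppbp, a platelet chemokine gene (5.27, 8.76 and 6.84), were highest in control 2. A pair was low in control 3: Nppb, a natriuretic peptide gene, read 9.81, 10.58 and 6.94, and Gt(ROSA)26Sor, the non-coding RNA of the ROSA26 locus, 8.21, 7.31 and 3.54, at background in control 3. Without control 3 Nppb was in the high class (10.20). These 15 genes had SDs between 1.53 and 2.85. Over all genes above the lower bound in an array, 181 were higher and 67 lower by at least 1 in control 1 (1.42% and 0.524% of 12781), 109 and 133 in control 2 (0.853% and 1.04%) and 28 and 99 in control 3 (0.219% and 0.775%).

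**Figure D5:**
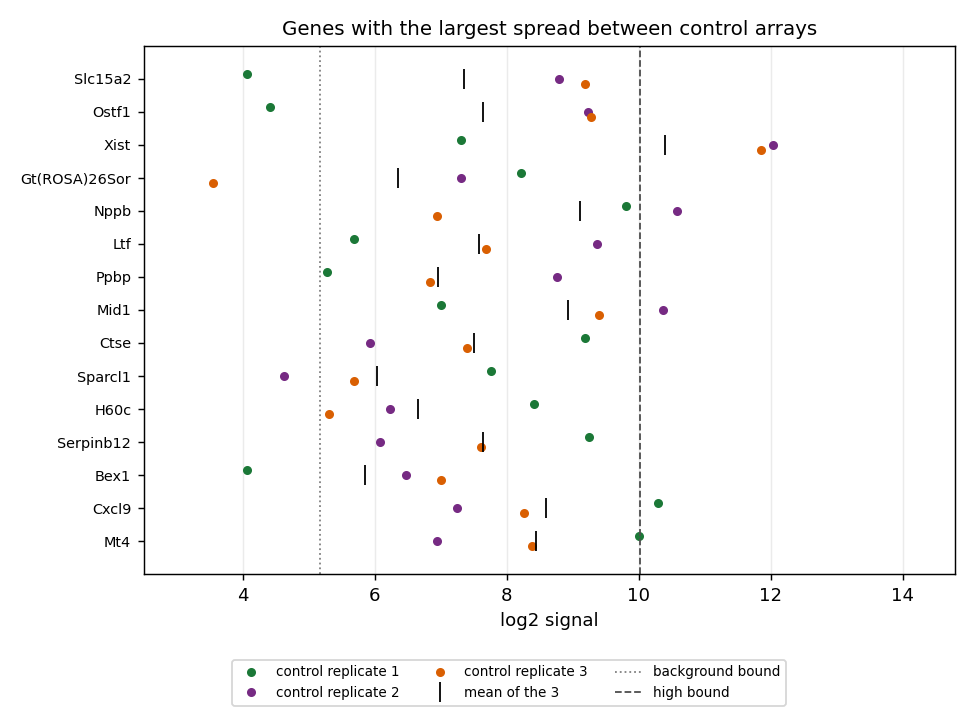
Log2 signal in each control array of the 15 genes with the largest SD over the 3 arrays among genes above the lower bound in at least 2 of them, with the mean as a black tick. Slc15a2, Ostf1, Xist, Mid1 and Bex1 are lowest in control 1, and Nppb and Gt(ROSA)26Sor are lowest in control 3.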

How the data were processed

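The authors deposited 1 table with 1 log2 signal per probe set and array of a whole-genome mouse GeneChip; the log2 scale was read from the range of the values. Per the labels' protocols 100 ng of total RNA per sample was labelled by a kit that starts at the poly-A tail, so a value reads the 3′ end of a transcript. Per the submitters' processing notes R 2.14.0 was used. The background correction, summarising method and normalization between arrays are not given in the sources used here. A common normalization hides a shift shared by most genes, and low signals flatten towards background.

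Of 45101 probe sets, 64 array controls, 932 naming several genes and 9160 unnamed were left out. The other 34945 named 1 gene each through the platform annotation, and 34754 of them matched the RefSeq gene table of GRCm38.p6 (0 symbols changed). Of 18193 genes, 9010 had more than 1 probe set, and for 4325 of these (48.0%) the probe sets fell in different classes. Taking the highest favours genes with many probe sets. Value columns that match no sample numbered 0.

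The members and the 46 gene lists (835 genes, 777 of them measured) were chosen with earlier results of these data known, and no test was made, since only 1 group is described. The text names the 5 markers and 3 exclusion genes, the 25 highest genes, from each list the 4 highest, 2 lowest and 1 most variable, and the 15 most variable genes, 319 in all. Other genes were named after their values were seen. Classes and summaries were computed in Python 3.11.15 with pandas 2.3.3 and numpy 2.4.6. Class assignment and probe set choice were run on simulated arrays with well separated levels, and the list summaries were not tested in this way. The dependence of classes and summaries on probe set choice, bounds, re-normalization and single arrays is given at the end. The number of arrays limits the precision.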

Additional observations from a re-analysis of the deposited data

How the results depend on the processing

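No paired analysis was possible because only the control group is described and no test was made. The count of background genes was 4970 to 6339, and 25 to 28 list medians lay above the all-gene median, against 27 as reported. Both stayed within 1.5 times the reported values under the other probe set choices, bounds, renewed quantile normalization and leaving out of each array. The count of high genes (1820 to 1851) was set by the 90th percentile in every setting except a fixed bound of 10. Its stability is therefore no check. The median SD was 0.149 after quantile normalization and 0.111 to 0.139 without 1 array. The promoter comparison changed direction with the search. On either strand the share of high genes with TATAAA (10.5%) was 0.673 times that of all genes of the table (15.7%). Of the measured genes 11.5% held it there, nearer to the high genes. On the sense strand within 50 bases before the start the share (3.74%) was 1.19 times that of the table (3.15%), with 3.30% of measured genes. The choice of probe set mattered most. With the median over a gene's probe sets, 21 of 46 list medians moved by more than 0.58, 4 changed class and 37 of 319 named genes changed class, and without shared-sequence probe sets 28 genes did. In the former setting the medians of hemidesmosome adhesion (7.95), glycolysis and hypoxia (9.35), Hippo (7.34) and BMP and TGF-beta genes (6.97) fell most. Leaving out control 1, 2 or 3 changed the class of 11, 13 and 11 genes. The lower bound at the 40th percentile of all probe sets moved the medians of the pan-leukocyte, macrophage, T cell and endothelium lists, and Ptprc, into the intermediate class, so low markers are only bounded by the background.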

Other observations

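Gene families outside the lists were described after the data were seen, by the same classes. Of all genes 10% were high and 33% at background. Annexins and S100 proteins, calcium-binding families of epithelia, were strong: 7 of 11 annexins were high (median 10.81), led by Anxa1 (13.26 ± 0.17) and Anxa2 (13.09 ± 0.10), and 6 of 11 S100 genes (median 11.67), among them S100a6 (12.88 ± 0.08) and S100a10 (12.46 ± 0.02). Of 8 galectins 3 were high, and Lgals7, a galectin of stratified epithelia, had a mean of 13.30 ± 0.02. The clade B serpins, a family of mostly intracellular proteins, had 4 high members of 18, with Serpinb2 at 11.96 ± 0.84 and Serpinb5 (maspin) at 11.71 ± 0.32. Of 13 HSP70 genes 6 were high, among them the stress-induced pair Hspa1b (12.55 ± 0.20) and Hspa1a (11.20 ± 0.38), which are near copies and may share signal. The NR4A orphan receptors, which are immediate early genes, had Nr4a1 at 12.19 ± 0.19 and the other two in the intermediate class.

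Other families had at most 2 high members each, and for aquaporins and the TNF receptor family that share was near the 10% of all genes. Of 20 claudins only Cldn4 was high (11.06 ± 0.50), with 9 intermediate and 10 at background. Of 11 aquaporins only Aqp3, the glycerol channel of keratinocytes, was high (11.76 ± 0.55). Connexins had Gja1 (12.77 ± 0.08) and Gjb2 high and 7 of 11 at background. HOX genes had no high member of 33 and 18 at background, and Hoxa9 was the strongest (8.93 ± 0.39). Of 38 keratin-associated protein genes of the hair shaft 32 were at background. Of 11 Toll-like receptors none was high, and Tlr2 led at 6.30 ± 0.28. The TNF receptor family had 2 high genes of 19, Tnfrsf12a (11.13 ± 0.02), the receptor of TWEAK, and Tnfrsf1a (10.71 ± 0.08).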
